A study of Mus musculus with 93 samples.

Results

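The genes described are the nuclear genes of respiratory chain complexes I to IV in mouse cortex, 77 of the 24528 genes in both deposited tables. They were chosen by name: every gene whose symbol starts with Nduf, Uqcr, Cox4i, Cox5, Cox6, Cox7 or Cox8, together with Sdha, Sdhb, Sdhc, Sdhd and Cyc1. The rule itself uses no measured value. Of the 77 genes, 7 encode core subunits of complex I, 29 accessory subunits of complex I, 8 assembly factors of complex I (Ndufaf1 to Ndufaf8), 4 the whole of complex II, 9 complex III, 11 complex IV in its usual form, and 8 alternative isoforms of complex IV subunits. The remaining gene is Cox7a2l, which encodes a supercomplex factor. Of these, 74 could be tested at PND 5 and 12 months and 75 at 18 months. Cox7b2 and Cox8c, 2 isoform genes expressed mainly in testis, lay at the floor of both tables, and Cox8b, an isoform of heart and skeletal muscle, lay at the floor of the first. Ndufa4 and Ndufa4l2 are counted here with complex IV and its isoforms, since Ndufa4 protein is known as a subunit of that complex.

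The study asked whether developmental exposure to the pyrethroid pesticide deltamethrin (DM) acts together with a heterozygous nonsense mutation of Chd8, a chromatin remodeler. RNA from 1 hemisphere of cerebral cortex was sequenced as polyA libraries of 93 mice. At PND 5 the mice were of both sexes, with 10 Chd8V986*/+ DM mice, 12 WT DM mice, 10 Chd8V986*/+ oil mice and 12 WT oil mice from 13 litters, and at 12 months all were male, with 10 Chd8V986*/+ DM mice, 10 WT DM mice, 9 Chd8V986*/+ oil mice and 9 WT oil mice from 19 litters. A further 5 Chd8V986*/+ and 6 WT males of 18 months were untreated. Dams received 3 mg/kg DM in oil, or oil alone, every 3 days from the start of pregnancy, and exposure of the 12 month old mice ended at PND 22. PND 5 mice were exposed up to the day of collection. All mice came from Chd8V986*/+ sires and WT C57BL/6J dams, so the mutation was present in every cell from conception, in a single mouse line. Each mouse gave 1 library, and littermates shared 1 exposure. The libraries of the first table were made in 4 batches, of which 1 to 3 hold mice of both ages.

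The respiratory chain passes electrons from NADH and succinate to oxygen and stores the energy as a proton gradient across the inner mitochondrial membrane. Complex I oxidizes NADH through core subunits inherited from bacteria, around which accessory subunits are arranged. Complex II is also an enzyme of the citric acid cycle, complex III reduces cytochrome c, and complex IV reduces oxygen. Assembly factors such as the Ndufaf proteins help to build complex I but are absent from the finished enzyme. Neurons depend heavily on this chain, and cortex is known to gain mitochondrial capacity after birth. None of the 13 subunits encoded by mitochondrial DNA was found by name in the deposited values, so they could not be analysed here.

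The values are variance-stabilized log2 values. Because their level was shifted separately for each gene, levels were not compared between genes, and each value at PND 5 and 12 months is given relative to the mean of WT oil mice at PND 5 or at the same age, after adjustment for batch, sex, dissector and litter number. Read counts are not part of the tables, and the study's Methods give depth only as a median over all samples, so the depth of each library is unknown and no counting interval can be given. The threshold for a call was an adjusted p of 0.05 from limma, with the Benjamini-Hochberg method applied across the 15471 genes tested at PND 5 and 12 months, or the 16419 tested at 18 months. Chd8 itself averaged −0.59 ± 0.18 in Chd8V986*/+ DM mice (SD, n = 10) and −0.61 ± 0.22 in Chd8V986*/+ oil mice (SD, n = 9) at 12 months, relative to WT oil mice, and was lower in Chd8V986*/+ than in WT littermates in 19 of 19 litters. At 18 months Chd8 was 11.15 to 11.33 in Chd8V986*/+ and 11.70 to 11.81 in WT mice. At PND 5 Chd8 went against the labels in 1 female pair of DM litter B, at 0.19 in the library labelled Chd8V986*/+ and −0.48 in the library labelled WT. Both were kept as labelled, and the PND 5 results that rest on them are also given without both. All 10 genes of a mature neuron list lay above the floor at each age, as did all 5 genes of striatum, meninges and blood lists, so that detection alone does not tell cortex from tissue around it.

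The promoters of 5 members on which the results turn are shown from RefSeq (GRCm38.p6, 250 bases before to 50 after the start), each read 5′ to 3′ on the strand of the gene. Sdha had the clearest age difference, Ndufs8, Uqcr11 and Ndufs7 differed by genotype at 12 months, and Cox6b2 differed by genotype at PND 5. Capitals mark matches on either strand to the NRF1 motif CGCANGCGC, the ETS motif CCGGAAG or the YY1 motif AAGATGGCG. Sdha (chr13:74350191-74350490, minus strand) held 3 NRF1 matches, Ndufs8 (chr19:3912725-3913024, minus strand) 1 ETS match, Uqcr11 (chr10:80406772-80407071, minus strand) 1 ETS and 1 NRF1 match, Ndufs7 (chr10:80249199-80249498, plus strand) 1 YY1 match, and Cox6b2 (chr7:4753045-4753344, minus strand) none.
Sdha: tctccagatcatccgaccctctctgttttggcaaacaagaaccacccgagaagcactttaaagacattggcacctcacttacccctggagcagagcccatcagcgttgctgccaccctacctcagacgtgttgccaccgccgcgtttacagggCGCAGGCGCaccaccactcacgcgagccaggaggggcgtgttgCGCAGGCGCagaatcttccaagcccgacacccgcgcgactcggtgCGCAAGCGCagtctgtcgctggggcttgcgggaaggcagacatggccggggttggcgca
Ndufs8: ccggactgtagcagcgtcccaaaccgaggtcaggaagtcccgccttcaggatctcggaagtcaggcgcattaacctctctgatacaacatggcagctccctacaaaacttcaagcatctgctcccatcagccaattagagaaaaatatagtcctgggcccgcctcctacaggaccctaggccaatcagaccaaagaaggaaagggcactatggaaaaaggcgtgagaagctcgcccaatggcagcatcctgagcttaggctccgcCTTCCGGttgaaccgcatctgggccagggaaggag
Uqcr11: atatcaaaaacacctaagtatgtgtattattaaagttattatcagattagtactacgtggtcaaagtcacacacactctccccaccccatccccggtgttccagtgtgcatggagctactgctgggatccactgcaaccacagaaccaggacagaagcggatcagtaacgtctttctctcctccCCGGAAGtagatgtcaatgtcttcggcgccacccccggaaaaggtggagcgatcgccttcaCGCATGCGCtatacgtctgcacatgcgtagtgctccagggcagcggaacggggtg
Ndufs7: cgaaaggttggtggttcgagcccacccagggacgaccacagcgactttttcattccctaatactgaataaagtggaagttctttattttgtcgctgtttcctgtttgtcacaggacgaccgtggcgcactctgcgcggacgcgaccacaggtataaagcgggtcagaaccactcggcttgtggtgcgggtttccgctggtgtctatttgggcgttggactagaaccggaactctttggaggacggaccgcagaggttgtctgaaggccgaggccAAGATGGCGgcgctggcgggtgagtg
Cox6b2: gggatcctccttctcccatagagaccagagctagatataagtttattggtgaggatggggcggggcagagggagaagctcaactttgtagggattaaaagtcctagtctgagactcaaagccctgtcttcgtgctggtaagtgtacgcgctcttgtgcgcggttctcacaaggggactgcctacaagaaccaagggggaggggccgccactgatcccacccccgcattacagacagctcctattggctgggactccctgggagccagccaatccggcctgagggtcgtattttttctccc

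A promoter entry was matched for 61 of the 77 members. The NRF1 motif was found in 17 of these (27.9%), against 7.12% of the 27025 genes with an entry. Those genes are not limited to the genes tested here, and the share among tested genes was not examined. The ETS motif was found in 13 (21.3%, against 9.93%) and the YY1 motif in 6 (9.84%, against 1.64%). At least 1 of the 3 motifs was found in 31 members (50.8%), against 16.6% of all genes, and matches of different motifs overlapped in 0 members. Within the complexes, NRF1 matches were in 9 of 27 accessory subunit genes of complex I, 2 of 3 complex II genes, 3 of 5 complex III genes and 1 of 9 complex IV genes. None of the 4 isoform promoters held any of the motifs. A match is only a description of these letters, and no binding was measured.

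Between PND 5 and 12 months members of all 4 complexes changed, and no difference between complexes was tested. All mice of 12 months were male and had the same dissector. The sex and dissector terms of this comparison therefore rest on the PND 5 mice. In oil mice of both genotypes, all 7 core subunit genes of complex I rose at 12 months relative to PND 5, while of the 8 Ndufaf assembly factors 2 rose and 3 fell in Chd8V986*/+ and 2 rose and 4 fell in WT mice. Over the 74 members 43 rose and 7 fell in Chd8V986*/+ oil mice, and 28 rose and 9 fell in WT oil mice. Of all genes, 79% were called in Chd8V986*/+ oil mice (39.9% higher, 39.1% lower) and 78.8% in WT oil mice (39.5% higher, 39.4% lower). The share of members called was lower, at 67.6% in Chd8V986*/+ and 50% in WT oil mice. The median difference of the members was 0.31 in Chd8V986*/+ and 0.13 in WT oil mice, beside 0.01 over all genes tested in both. With batch 3 left out, 26 members (35.1%, beside 64.3% of all genes) were called in Chd8V986*/+ and 18 (24.3%, beside 63.9%) in WT oil mice. Without batch 1 the counts were 51 (68.9%, beside 79.4%) and 48 (64.9%, beside 80.4%).

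The markers of the cortical cell types changed over the same interval. All 10 mature neuron genes rose, all 7 immature neuron genes fell and all 5 oligodendrocyte genes tested rose, in oil mice of both genotypes. In bulk tissue, more cells of a type and more RNA per cell cannot be told apart. Of 82 genes of cytosolic ribosomal proteins, 63 fell and 2 rose in Chd8V986*/+ oil mice, with a median difference of −0.56, and 73 fell and 0 rose in WT oil mice, with a median of −0.70. The part of these shifts in the values of the members was not tested.

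**Figure D1:**
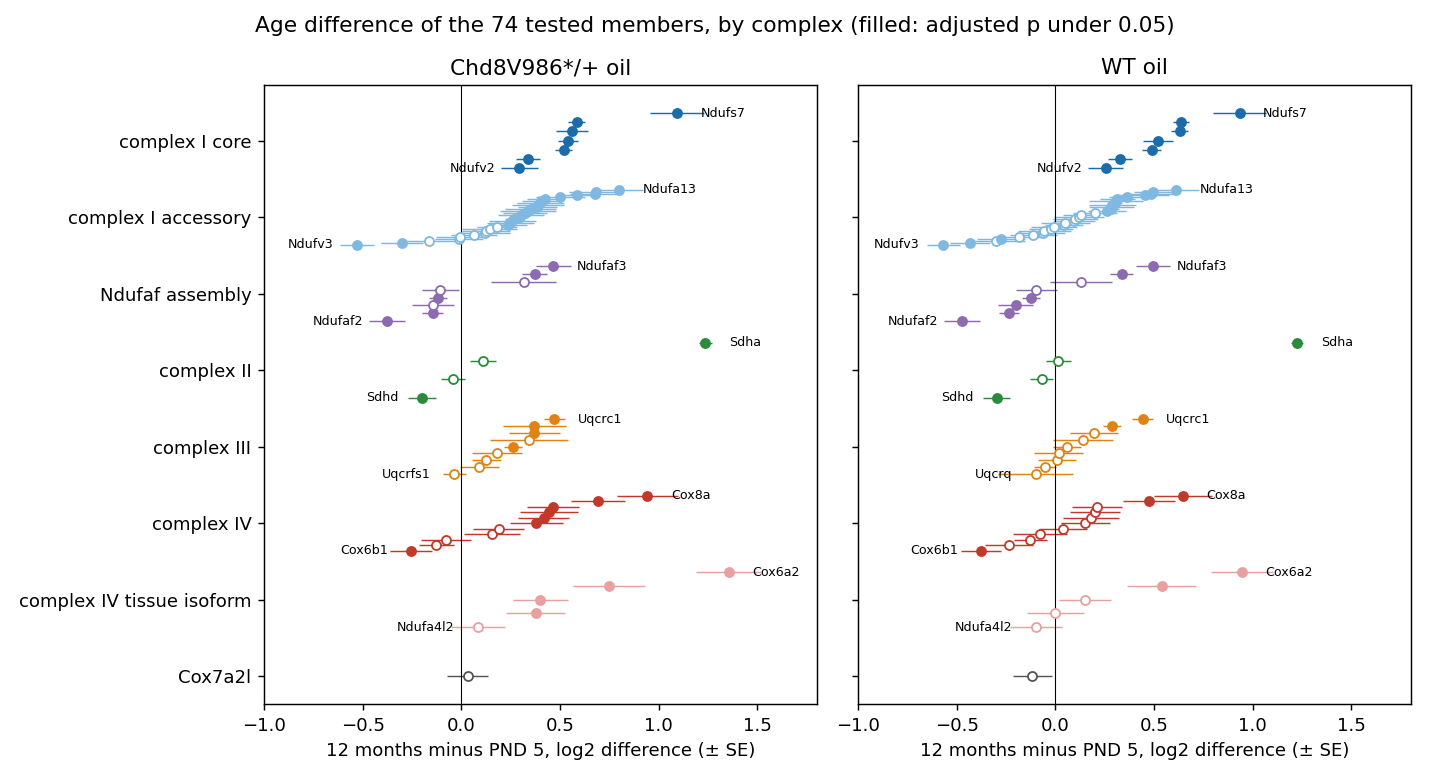
Log2 difference (± SE) between 12 months and PND 5 for each of the 74 tested members, grouped by complex, in Chd8V986*/+ oil mice (left) and WT oil mice (right), with filled points for adjusted p under 0.05 over all genes tested. The 7 core subunits of complex I all lie above 0, while the assembly factors lie on both sides of it.

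Among the core subunits of complex I, which carry the flavin and iron-sulfur clusters, the median difference was 0.54 in Chd8V986*/+ and 0.52 in WT oil mice. Ndufv1, which binds NADH and the flavin, was at 0.53, 0.63 and 0.76 (lowest, median, highest) in 12 month old WT oil mice, against −0.11, 0.00 and 0.15 at PND 5. Its ranges did not overlap, and the difference was 0.64 ± 0.04 (SE; adjusted p = 2.23e-23). Ndufs1, the largest core subunit, was at 0.57, 0.62 and 0.73 in 12 month old WT oil mice, against −0.07, −0.01 and 0.08 at PND 5, a difference of 0.63 ± 0.04 (SE). Ndufs7, which holds the cluster that hands electrons to ubiquinone, was more variable, at 0.48, 0.93 and 1.27 at 12 months, against −0.25, −0.02 and 0.24 at PND 5, in WT oil mice. Its difference was 1.09 ± 0.14 in Chd8V986*/+ and 0.93 ± 0.13 in WT oil mice (SE). Ndufs8, another iron-sulfur subunit, rose by 0.56 in Chd8V986*/+ and 0.52 in WT oil mice. Ndufs3 and Ndufv2, also of the core, rose by 0.33 and 0.26 in WT oil mice.

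The 29 accessory subunit genes of complex I were divided. In Chd8V986*/+ oil mice 19 rose and 2 fell, with a median of 0.30, and in WT oil mice 12 rose and 3 fell, with a median of 0.12. Ndufa13, which lies where the arms of the enzyme meet, was at 0.20, 0.61 and 0.88 in 12 month old WT oil mice, against −0.29, 0.00 and 0.32 at PND 5. The ranges overlapped slightly for a difference of 0.61 ± 0.12 (SE; adjusted p = 2.14e-06). Ndufb10, of the membrane arm, rose by 0.59 in Chd8V986*/+ and 0.50 in WT oil mice. Ndufv3, a small subunit beside the NADH site, fell instead. It was at −0.90, −0.52 and −0.35 in 12 month old WT oil mice, against −0.19, −0.01 and 0.26 at PND 5, without overlap, a difference of −0.57 ± 0.08 (SE; adjusted p = 4.51e-09). Ndufs4, loss of which in mice is a model of Leigh syndrome, fell by 0.30 in Chd8V986*/+ and by 0.43 in WT oil mice. Its call was lost in 4 of 10 alternatives in Chd8V986*/+ mice, down to −0.04 under quantile normalization (adjusted p = 0.785), and in 3 of 10 in WT mice, down to −0.20 (adjusted p = 0.11).

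Among the assembly factors of complex I, calls went in both directions. Their median difference was −0.11 in oil mice of both genotypes, and 0.01 in Chd8V986*/+ mice with batch fitted as a number. Ndufaf3, which acts with Ndufaf4 in building the ubiquinone module, was at 0.30, 0.47 and 0.68 in 12 month old WT oil mice, against −0.24, −0.01 and 0.23 at PND 5. This was a rise of 0.50 ± 0.09 (SE). Ndufaf4 was at −0.33, −0.24 and −0.10 in 12 month old WT oil mice, against −0.12, 0.00 and 0.14 at PND 5, a difference of −0.23 ± 0.05 (SE) that was not called without batch 3 (−0.13, adjusted p = 0.209) or under quantile normalization (−0.11, adjusted p = 0.0592). In Chd8V986*/+ oil mice it was at −0.15, and this call was lost in 5 of 10 alternatives. Ndufaf1, a factor for the membrane arm, rose by 0.37 in Chd8V986*/+ and 0.34 in WT oil mice. Ndufaf2, which acts late in assembly, was at −0.62, −0.47 and −0.24 in 12 month old WT oil mice, against −0.24, −0.07 and 0.39 at PND 5, a difference of −0.47 ± 0.09 (SE). Ndufaf5, which hydroxylates Ndufs7 protein, and Ndufaf7, a methyltransferase, fell by 0.20 and 0.12 in WT oil mice. These calls were lost in 3 and 4 of 10 alternatives, down to −0.05 for Ndufaf5 with batch as a number (adjusted p = 0.656) and −0.03 for Ndufaf7 under quantile normalization (adjusted p = 0.527). In WT oil mice Ndufaf6 at −0.10 and Ndufaf8 at 0.13 were not called, but under quantile normalization they were at −0.43 (adjusted p = 0.000171) and −0.47 (adjusted p = 0.0063). Ndufaf6 in Chd8V986*/+ oil mice was at −0.14, not called, and at −0.51 under quantile normalization (adjusted p = 2.64e-05).

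In complex II 1 subunit gene rose, 1 fell and the other two were not called. Sdha, the flavoprotein that oxidizes succinate (chr13:74322254-74350280, minus strand, GENCODE M21 on GRCm38), was at 1.14, 1.20 and 1.38 in 12 month old Chd8V986*/+ oil mice, against −0.08, −0.02 and 0.06 at PND 5. WT oil mice gave 1.14, 1.24 and 1.29 at 12 months, against −0.05, 0.00 and 0.05 at PND 5. The ages were far apart in both genotypes, with a difference of 1.24 ± 0.03 in Chd8V986*/+ and 1.23 ± 0.03 in WT oil mice (SE; adjusted p = 6.54e-49 and 5.29e-50). Sdhb, the iron-sulfur subunit, and Sdhc, a membrane anchor, differed by 0.01 ± 0.06 and −0.07 ± 0.06 in WT oil mice (SE) and were not called. Under quantile normalization Sdhb was at 0.26 (adjusted p = 0.000784) and Sdhc at 0.14 (adjusted p = 0.0405). In Chd8V986*/+ oil mice Sdhb was at 0.11, not called, and at 0.38 under quantile normalization (adjusted p = 5.27e-06) and 0.23 with batch as a number (adjusted p = 0.00655). Sdhd, the other membrane anchor, was at −0.48, −0.28 and −0.16 in 12 month old WT oil mice, against −0.14, −0.03 and 0.34 at PND 5, a difference of −0.30 ± 0.07 (SE) that was 0.03 under quantile normalization.

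Of the 9 complex III genes, 4 rose in Chd8V986*/+ and 2 in WT oil mice, and 0 fell in either. They included Uqcrc1 and Uqcrc2, the large core proteins. Uqcrc1 was at 0.31, 0.45 and 0.57 in 12 month old WT oil mice, against −0.09, −0.01 and 0.12 at PND 5. This was a difference of 0.44 ± 0.05 (SE), and that of Uqcrc2 was 0.29 ± 0.04 (SE). Of the 11 complex IV genes, 6 rose and 1 fell in Chd8V986*/+ oil mice and 2 rose and 1 fell in WT oil mice. Cox8a, the smallest subunit, was at 0.41, 0.67 and 0.98 in 12 month old WT oil mice, against −0.43, −0.01 and 0.38 at PND 5, a difference of 0.64 ± 0.15 (SE). Cox4i1, the subunit through which ATP regulates the enzyme, rose by 0.69 in Chd8V986*/+ and 0.48 in WT oil mice. Without batch 3, neither Cox8a (0.42, adjusted p = 0.19) nor Cox4i1 (0.33, adjusted p = 0.233) was called in WT oil mice. Cox6b1, which faces the intermembrane space, was at −0.54, −0.33 and −0.26 in 12 month old WT oil mice, against −0.27, −0.08 and 0.36 at PND 5. Its difference of −0.25 in Chd8V986*/+ and −0.38 in WT oil mice turned positive under quantile normalization, at 0.22 and 0.06.

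Complex IV exchanges several subunits for isoforms named for muscle, lung or testis. Cox6a2, the heart and skeletal muscle form, was at 0.68, 1.08 and 1.46 in 12 month old Chd8V986*/+ oil mice, against −0.60, −0.28 and 0.20 at PND 5, a difference of 1.35 ± 0.16 (SE) that was 0.28 under quantile normalization (adjusted p = 0.124). In WT oil mice it was at 0.38, 0.99 and 1.55 at 12 months, against −0.40, −0.01 and 0.30 at PND 5, a difference of 0.95 ± 0.16 (SE) that was −0.08 under quantile normalization and 0.55 without batch 3 (adjusted p = 0.645 and 0.0678). Its partner Cox6a1, the common form, differed by 0.44 in Chd8V986*/+ oil mice and by 0.18, not called, in WT oil mice. Cox7a1, another muscle form, rose by 0.75 in Chd8V986*/+ oil mice but was at −0.37 under quantile normalization (adjusted p = 0.0655), and rose by 0.54 in WT oil mice but was at −0.57 under quantile normalization (adjusted p = 0.00258). Its common partner Cox7a2 was at −0.08 in Chd8V986*/+ and −0.24 in WT oil mice (adjusted p = 0.575 and 0.0684). Cox4i2, the lung form, differed by 0.40 in Chd8V986*/+ and 0.15 in WT oil mice, and was at −0.18 and −0.38 under quantile normalization. Cox6b2, the testis form, was at 0.38 in Chd8V986*/+ oil mice (adjusted p = 0.0187) and 0.00 in WT oil mice. Under quantile normalization it was at −0.16 (adjusted p = 0.311) in Chd8V986*/+ and −0.47 (adjusted p = 0.00125) in WT oil mice. Ndufa4 differed by 0.42 in Chd8V986*/+ and 0.15 in WT oil mice, and Ndufa4l2, known to be induced by hypoxia, by 0.08 and −0.10. Under quantile normalization Ndufa4l2 was at −0.31 (adjusted p = 0.0279) and −0.45 (adjusted p = 0.000957). Whether the age differences themselves differed between the genotypes was not tested.

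Other genes of the pathway were counted from fixed lists. Of 17 genes of ATP synthase (complex V), 5 rose and 3 fell with age in Chd8V986*/+ oil mice, and 4 rose and 6 fell in WT oil mice. Of 29 assembly factors of complexes II to IV, 15 rose and 6 fell in Chd8V986*/+ oil mice, and 12 rose and 4 fell in WT oil mice. In both genotypes 2 rose and 1 fell of 7 assembly factors of complex I outside the Ndufaf family, and 3 rose and 5 fell of 9 transcription factors and coactivators of mitochondrial genes.

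At 12 months Chd8V986*/+ mice were compared with their WT littermates. Over both exposures 13 of 74 members (17.6%) were called, beside 16.9% of all genes, so that the members were called about as often as other genes. Their direction was uneven: 12 members (16.2%) were higher in Chd8V986*/+ mice, beside 7.81% of all genes, and 1 (1.35%) was lower, beside 9.12%. The 12 were Uqcrq, Uqcr11 and Uqcr10 of complex III, the accessory subunit genes Ndufa2, Ndufa6, Ndufa7, Ndufa13, Ndufb6 and Ndufc1, the core subunit genes Ndufs7 and Ndufs8, and Cox5b of complex IV. Ndufs1 was lower. No gene of complex II, no assembly factor and no isoform was called. The median difference was 0.09 over the members and −0.01 over all genes tested, and 60 of 74 members were above 0 (81.1%, beside 47% of all genes). Littermates pair the genotypes, and with litter as the replicate block 36 members were called, 35 of them higher and 1 lower (48.6%, beside 33% of all genes), with all 13 among them. Counts of members by direction, here and below, are not counts of independent genes. Residuals of the members correlated with the ribosomal protein mean at a median r of 0.854, beside 0.0055 over all genes tested.

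Uqcrq, a small subunit of complex III (chr11:53427922-53430831, minus strand), had the largest difference. Relative to the mean of WT oil mice of the same age it was at 0.18, 0.46 and 1.02 in Chd8V986*/+ DM mice, against −0.47, 0.06 and 0.43 in WT DM mice. In oil mice it was at −0.22, 0.43 and 1.07 in Chd8V986*/+ and −0.65, −0.05 and 0.60 in WT mice. The genotypes overlapped in both exposures, for a difference of 0.46 ± 0.11 (SE; adjusted p = 0.00204). Ndufs8 (chr19:3908863-3912774, minus strand), whose promoter is printed above, varied less. It was at −0.13, 0.22 and 0.31 in Chd8V986*/+ DM mice, against −0.35, −0.02 and 0.15 in WT DM mice, and at −0.14, 0.14 and 0.37 in Chd8V986*/+ oil mice, against −0.25, 0.05 and 0.18 in WT oil mice. These ranges also overlapped, for a difference of 0.18 ± 0.04 (SE; adjusted p = 0.00415). Ndufa7, an accessory subunit (chr17:33824572-33838317, plus strand), was at −0.05, 0.24 and 0.59 in Chd8V986*/+ DM mice, against −0.36, 0.04 and 0.29 in WT DM mice, and at −0.09, 0.22 and 0.88 in Chd8V986*/+ oil mice, against −0.49, 0.02 and 0.27 in WT oil mice. Its difference was 0.29 ± 0.07 (SE; adjusted p = 0.0025). Ndufa2, an accessory subunit of the peripheral arm, differed by 0.28, Uqcr11 by 0.32, Uqcr10 by 0.24, Ndufs7 by 0.26 and Ndufb6 by 0.27. Ndufs1 (chr1:63143596-63176833, minus strand) was at −0.20, −0.06 and 0.03 in Chd8V986*/+ DM mice, against −0.08, −0.03 and 0.12 in WT DM mice, and at −0.19, −0.09 and 0.04 in Chd8V986*/+ oil mice, against −0.06, −0.01 and 0.10 in WT oil mice. Its difference of −0.08 ± 0.02 (SE; adjusted p = 0.017) was opposite to that of the other core genes called.

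These 9 genes were called with any 1 of the 38 mice left out. Cox5b, Ndufa13, Ndufa6 and Ndufc1, which differed by 0.21, 0.19, 0.20 and 0.18, were called in 30, 27, 27 and 22 of the 38 fits, and their adjusted p was highest (0.0888, 0.0876, 0.0912 and 0.111) without the Chd8V986*/+ oil mouse of litter E, from batch 1. Without the Chd8V986*/+ oil mouse of litter K 20 members were called. Among 82 ribosomal protein genes, 7 rose and 0 fell in the same comparison, with a median of 0.08. Of 6 astrocyte genes 2 rose, of 10 mature neuron genes 4 fell, of 5 endothelial and 5 blood genes 1 each rose, and of 4 choroid plexus and 7 immature neuron genes 1 each fell, while 0 of 5 oligodendrocyte, microglia, striatum and meninges genes were called. The mean of the oligodendrocyte genes was −0.07 in Chd8V986*/+ DM mice, against −0.11 in WT DM mice, and −0.09 in Chd8V986*/+ oil mice, against 0.00 in WT oil mice. The mean of the blood genes was 0.02 ± 0.23 in Chd8V986*/+ DM mice, against −0.31 ± 0.14 in WT DM mice (SD, n = 10 each), and 0.09 ± 0.65 in Chd8V986*/+ oil mice, against 0.00 ± 0.39 in WT oil mice (SD, n = 9 each). That of the choroid plexus genes was −0.54 ± 0.29 in Chd8V986*/+ oil mice, against 0.00 ± 1.20 in WT oil mice, where the highest mouse was at 2.18. In the other lists of the pathway, 2 rose and 1 fell of 17 complex V genes, and 8 rose and 1 fell of 29 assembly factors of complexes II to IV. Of 9 transcription factors and coactivators, 2 rose and 1 fell. The part of the ribosomal protein and cell type genes in the values of the members was not tested.

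**Figure D2:**
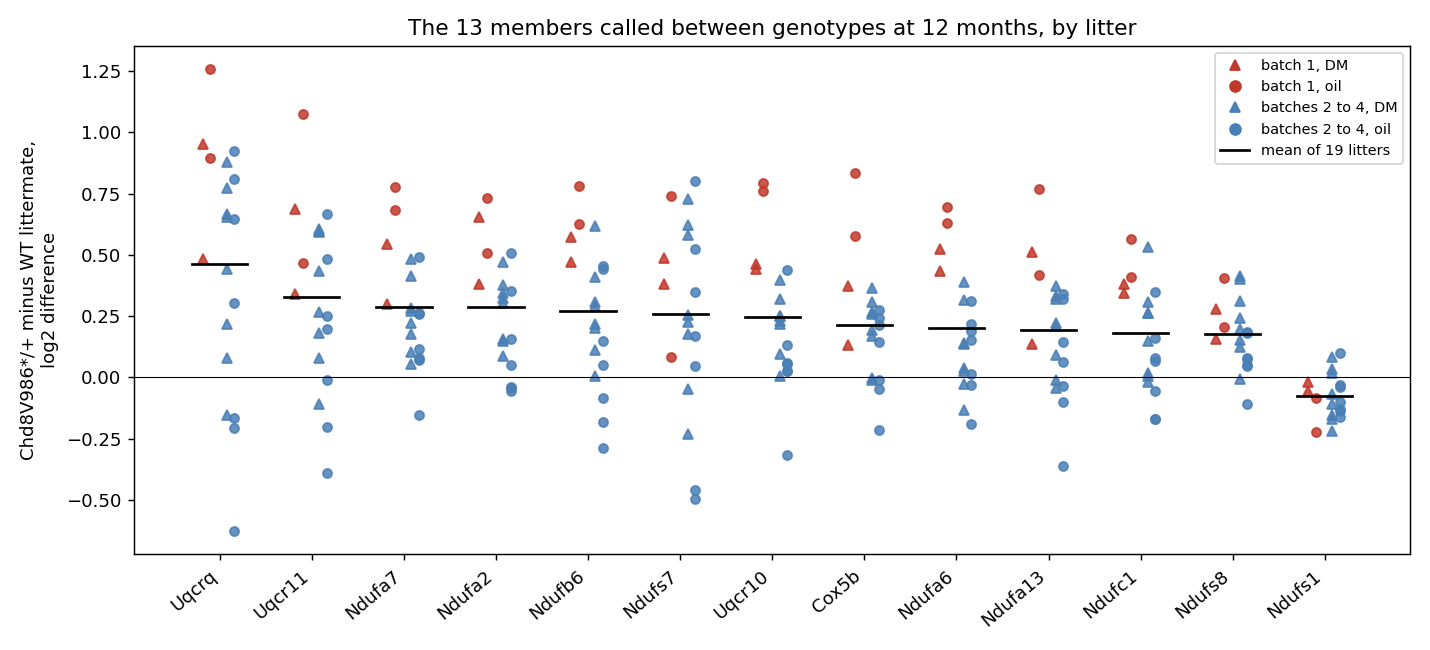
Log2 difference between Chd8V986*/+ mouse and WT littermate at 12 months for the 13 called members, 1 point per litter (red, batch 1; blue, batches 2 to 4; triangles, DM; circles, oil), with a bar at the mean of the 19 litters. Ndufs1 lies below 0 in all 4 batch 1 litters, and the other 12 genes lie above 0 in all 4.

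Batch 1 had the highest mean difference over the members, at 0.32. Batches 2, 3 and 4 were at 0.10, −0.01 and 0.06, and batch 2 was above 0 in 4 of 4 litters. Batch 1 held 4 litters of the 19, DM litters A and F and oil litters D and E. The mean difference over the 74 members was 0.25 in A, 0.14 in F, 0.47 in D and 0.44 in E. It was −0.15 to 0.13 in the 15 litters of batches 2 to 4, so that F lay close to the highest of them. In batch 1, 68 of 74 members had a litter mean above 0, with a median of 0.31, and 59 were above 0 in all 4 litters, beside 18.8% of all genes. Only Ndufs1 was below 0 in all 4. In batches 2 to 4, 54 of 74 members had a litter mean above 0, with a median of 0.02, and 0 members were above 0 in all 15 litters, beside 0.22% of all genes.

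**Figure D3:**
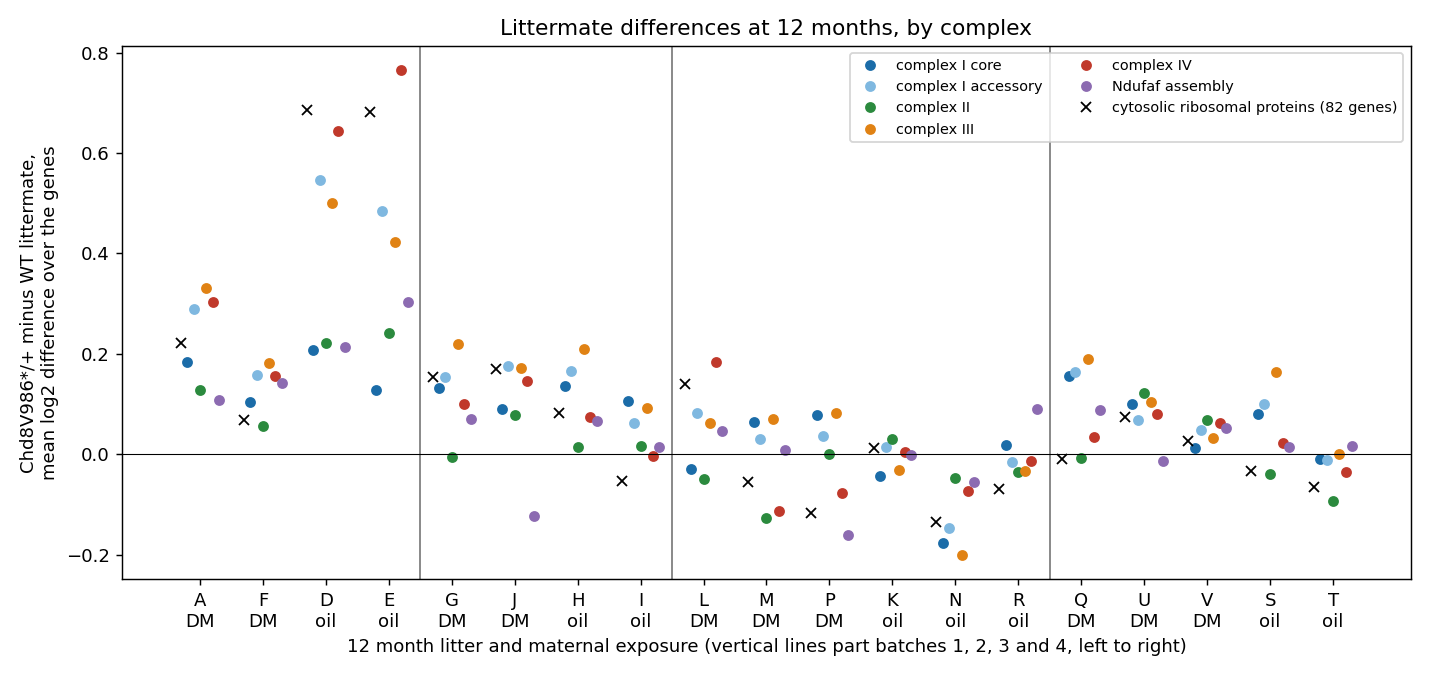
Mean log2 difference between Chd8V986*/+ mouse and WT littermate over the genes of each complex (points) and over 82 ribosomal protein genes (crosses) in each 12 month litter, with lines between the batches. Oil litters D and E of batch 1 lie highest for complex IV, at 0.645 and 0.765.

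Values by complex in batch 1 were not tested against each other. The 2 DM litters of batch 1 gave a mean difference of 0.26 for complex III, 0.23 for complex IV and 0.22 for accessory subunits of complex I. In the 2 oil litters of batch 1 it was 0.70 for complex IV, 0.52 for accessory subunits, 0.46 for complex III, 0.42 for isoforms, 0.26 for assembly factors, 0.23 for complex II and 0.17 for core subunits of complex I. Outside batch 1 the values were smaller. In the 8 DM litters of batches 2 to 4, complex III was at 0.12, accessory subunits at 0.09 and complex IV at 0.05. In the 7 oil litters complex III was at 0.03, accessory subunits at 0.02 and complex IV at 0.00. In batch 2 alone, complex III was at 0.17, accessory subunits at 0.14 and core subunits at 0.12, each above 0 in 4 of 4 litters. Complex IV was at 0.08 there, above 0 in 3 of 4. Over the 4 litters of batch 1 the core subunits were at 0.16. The mean over all members was above 0 in 8 of 8 DM litters (0.01 to 0.13) and in 4 of 7 oil litters of batches 2 to 4. The 82 ribosomal protein genes moved with the members in batch 1, at 0.14 in its DM litters and 0.68 in its oil litters, against 0.05 and −0.04 in batches 2 to 4. Astrocyte genes were at 0.42 and mature neuron genes at −0.23 in the batch 1 oil litters, against 0.02 and −0.02 in the other oil litters. Over the 4 litters of batch 1 striatum genes were at −0.34, below 0 in each (−0.56 to −0.02). They were at 0.10, −0.06 and 0.06 in batches 2, 3 and 4. Choroid plexus genes ranged from −2.93 to 0.71 in batch 1, and blood genes from −0.93 to 0.87. The part of the ribosomal protein and cell type genes in the values of batch 1 was not tested.

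Gene by gene, Uqcrq was higher in Chd8V986*/+ mice by 0.90 on average in batch 1 (4 of 4 litters) and by 0.35 in batches 2 to 4 (11 of 15 litters). Ndufa7 differed by 0.58 in batch 1 and by 0.21 in batches 2 to 4, where 14 of 15 litters were above 0. Ndufs8 differed by 0.26 in batch 1 and by 0.16 in batches 2 to 4, where 13 of 15 litters were above 0. Ndufs1 was at −0.09 in batch 1 and −0.07 in batches 2 to 4, with 4 of 15 litters above 0. With batch 1 left out, 8 members (10.8%, beside 11.4% of all genes) were still called, all of them higher in Chd8V986*/+ mice and all among the 13, including Uqcrq (0.34, adjusted p = 0.0218), Ndufa7 (0.21, 0.00365), Ndufa2 (0.20, 0.00895), Ndufs8 (0.15, 0.0141) and Uqcr11 (0.24, 0.0335). Ndufs7 (0.21, 0.0873) and Ndufs1 (−0.07, 0.0599) were no longer called. The median over the members was then 0.02.

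In DM mice alone at 12 months 3 members (4.05%) were called, all higher in Chd8V986*/+ mice, beside 3.86% of all genes (2.23% higher, 1.63% lower): Ndufs8 (0.23, adjusted p = 0.0221), Ndufa2 (0.33, 0.0326) and Uqcrq (0.50, 0.0422). Ndufs8 was called in 16, Ndufa2 in 11 and Uqcrq in 9 of the 20 fits that left out 1 mouse. The adjusted p was highest without the Chd8V986*/+ mouse of litter A for Ndufa2 (0.102) and Uqcrq (0.116), and without the WT mouse of litter G for Ndufs8 (0.0799). In oil mice alone 0 members were called with limma, beside 1.97% of all genes. An unadjusted p under 0.05 was found for 14 members (18.9%, beside 18.8% of all genes), and 65 of 74 were above 0 (87.8%, beside 48.1%). The 3 smallest p-values in oil mice were those of Ndufa7 (0.29, adjusted p = 0.109), Uqcrq (0.43, 0.131) and Ndufs1 (−0.09, 0.148). With litter as the replicate block, 18 members were called in DM mice (24.3%, beside 15.5% of all genes) and 16 in oil mice (21.6%, beside 15.9%). Without batch 1 and without the block, 5 members (6.76%, beside 3.68% of all genes) were called in DM mice and 0 (beside 0.853%) in oil mice, where the median over the members was 0.00. The interaction of genotype and exposure called 0 members and 0% of all genes at 12 months with limma, and 0 members had an unadjusted p under 0.05.

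At PND 5 the genotypes differed in 1 member. Over both exposures Cox6b2 was lower in Chd8V986*/+ mice, 0 members were higher, and 1.97% of all genes were called (1.1% higher, 0.873% lower). The median over the members was 0.00. Cox6b2, the testis form of a complex IV subunit that lies where copies of the enzyme meet as a dimer (chr7:4751792-4753094, minus strand), was at −0.64, −0.14 and 0.28 in Chd8V986*/+ DM mice, against −0.47, 0.10 and 0.58 in WT DM mice. In oil mice it was at −0.82, −0.39 and −0.06 in Chd8V986*/+ and −0.31, −0.01 and 0.27 in WT mice. The ranges overlapped in both exposures, for a difference of −0.32 ± 0.08 (SE; adjusted p = 0.00994), and −0.28 with litter as the replicate block (adjusted p = 0.00351). The litter mean was lower in Chd8V986*/+ than in WT mice in 13 of 13 litters, by between 0.0462 and 0.686.

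Without the DM females of litter B whose Chd8 values went against their labels, the difference of Cox6b2 was −0.35 (adjusted p = 0.00252). Cox6b2 was called with any 1 of the 44 mice left out. It was at −0.29 and not called without batch 2 (adjusted p = 0.358). Its mean deposited value was low, at 4.893, so the fit with a minimum mean of 6 left it out. At 12 months Cox6b2 was not called, at 0.16 in batch 1 and 0.03 in batches 2 to 4, and at 18 months it was at −0.03 (adjusted p = 0.816). Its common partner Cox6b1 was not called by genotype at either age.

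**Figure D4:**
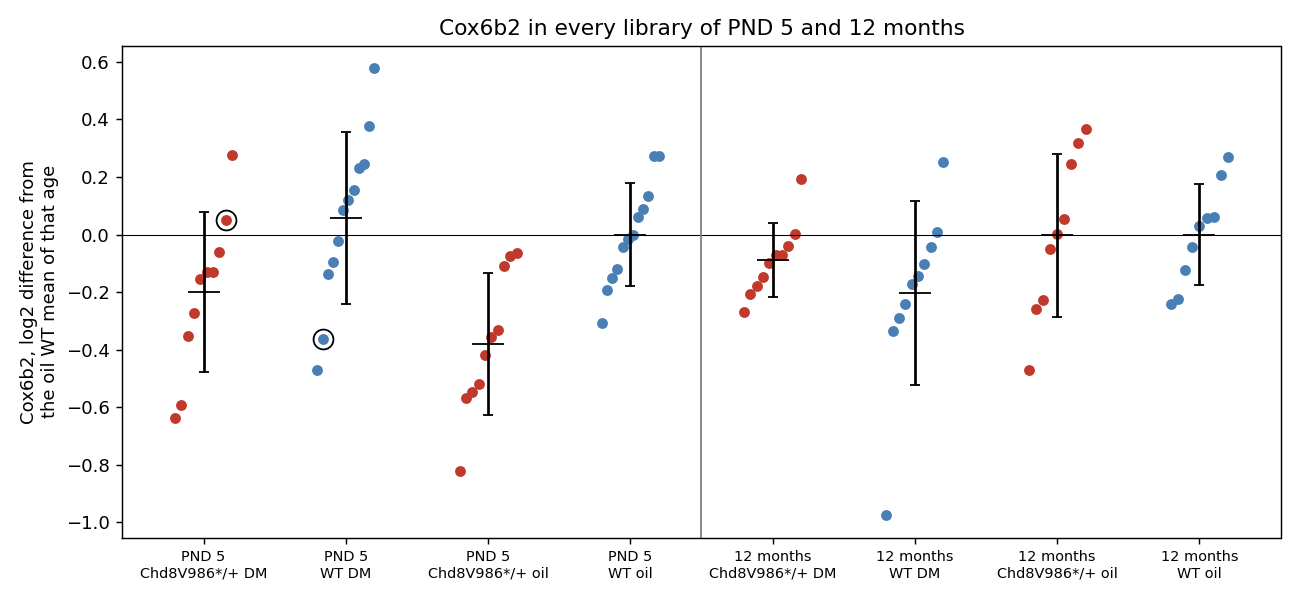
Cox6b2 in each library of PND 5 (left) and 12 months (right) on the log2 scale, relative to the mean of WT oil mice of that age, with bars for the mean ± SD of each group and rings on the litter B females whose Chd8 went against their labels. At PND 5 Chd8V986*/+ oil mice lie between −0.82 and −0.06, and WT oil mice between −0.31 and 0.27.

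In DM mice alone at PND 5, 0 members were called with limma, beside 0.226% of all genes, and 1 (1.35%, beside 6.06%) had an unadjusted p under 0.05. The 3 smallest p-values there were those of Ndufa9 (0.05), Ndufs8 (0.09) and Cox6b2 (−0.26), and without the females of litter B the count of calls was also 0. In oil mice alone 0 members were called, beside 0.562% of all genes, and 3 (4.05%, beside 7.44%) had an unadjusted p under 0.05: Cox6b2 (−0.38, adjusted p = 0.101), Cox6a2 (−0.27) and Ndufaf4 (−0.09). With litter as the replicate block Cox6b2 was called there, at −0.34 (adjusted p = 0.023), as the only member, beside 1.39% of all genes. The interaction called 0 members and 0% of all genes, and 0 members had an unadjusted p under 0.05.

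DM changed 0 members in Chd8V986*/+ mice at PND 5 with limma, beside 2.31% of all genes, with 9 (12.2%, beside 18.5%) at an unadjusted p under 0.05. With each age fitted on its own, 11 members were called there (14.9%, beside 10.3%). In WT mice of the same age 7 members (9.46%) were called, beside 8.71% of all genes. This fit counts littermates as separate mice, and with litter as a random effect 0 members and 0 genes were called. Of the 7, 2 (2.7%) rose and 5 (6.76%) fell, beside 4.89% and 3.82% of all genes. The members had a median of −0.03 in Chd8V986*/+ and −0.05 in WT mice, and 28 (37.8%) and 22 (29.7%) of 74 lay above 0, beside 46.3% and 48.6% of all genes. With each age fitted on its own, the median in WT mice was 0.01, and 10 members were called (13.5%, beside 10.8% of all genes). Ndufs7 was at −0.01, 0.41 and 0.68 in Chd8V986*/+ DM mice, against −0.27, 0.00 and 0.39 in Chd8V986*/+ oil mice, a difference of 0.36 ± 0.11 (SE; adjusted p = 0.0578). In WT mice it was at −0.14, 0.33 and 0.67 with DM, against −0.25, −0.02 and 0.24 with oil, a difference of 0.34 ± 0.10 (SE; adjusted p = 0.0223). Whether these effects differ is the interaction above. Cox7a2, a complex IV subunit, was at −0.45, −0.29 and 0.07 in Chd8V986*/+ DM mice, against −0.24, −0.06 and 0.21 in Chd8V986*/+ oil mice, a difference of −0.25 ± 0.10 (SE; adjusted p = 0.149). It was at −0.55, −0.34 and 0.00 in WT DM mice, against −0.26, −0.10 and 0.45 in WT oil mice, a difference of −0.33 ± 0.09 (SE; adjusted p = 0.0174). The ranges overlapped for both genes. Uqcrq differed by 0.47 in Chd8V986*/+ mice (adjusted p = 0.081) and rose by 0.42 in WT mice (adjusted p = 0.0481). In WT mice Ndufaf4, Cox6b1, Ndufa3 and Ndufa9 fell by 0.16, 0.25, 0.28 and 0.09 with DM (adjusted p = 0.00684, 0.0311, 0.0342 and 0.0498). With 1 mouse left out, Ndufaf4 and Cox7a2 were called in 24 of 24 fits, Ndufs7 in 23, Cox6b1 in 16, Ndufa3 in 15, and Ndufa9 and Uqcrq in 7 each. Leaving out single mice does not account for littermates that share an exposure. Of 13 other alternatives, Ndufa9 lost its call in 11, Uqcrq in 8, Cox6b1 and Ndufa3 in 6, Ndufs7 in 4, and Ndufaf4 and Cox7a2 in 3.

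Exposure differs between litters, so littermates share it. With litter as a random effect, 0 of the 7 genes and 0 genes of the whole table were called with limma. Without the females of litter B 4 members were called (5.41%, beside 6.07% of all genes), and with 1 mouse left out 3 (without WT DM mouse M1) to 8 (without WT DM mouse F2). Among the ribosomal protein genes 1 rose and 0 fell in Chd8V986*/+ mice, with a median of −0.13, and 1 rose and 7 fell in WT mice, with a median of −0.19. Of 5 meninges genes, 0 were called in Chd8V986*/+ mice and 4 rose in WT mice. Their mean was 0.55 ± 1.39 in Chd8V986*/+ DM mice, against −0.52 ± 1.01 in Chd8V986*/+ oil mice (SD, n = 10 each), and 1.24 ± 0.88 in WT DM mice, against 0.00 ± 0.69 in WT oil mice (SD, n = 12 each). Of 5 striatum genes, 2 rose in Chd8V986*/+ mice, with a mean of 0.25 with DM against −0.13 with oil, and 1 rose in WT mice, with a mean of 0.18 with DM against 0.00 with oil. Endothelial genes were at 0.06 in Chd8V986*/+ DM mice, against −0.05 in Chd8V986*/+ oil mice, and at 0.17 in WT DM mice, against 0.00 in WT oil mice, with 0 and 1 of 5 called. Of 10 mature neuron genes, 2 rose in Chd8V986*/+ mice, and 3 rose and 1 fell in WT mice. The part of these lists in the values of the members was not tested. At 12 months DM changed 0 members in Chd8V986*/+ mice with limma, beside 0.00646% of all genes, and 1 (1.35%, beside 3.09%) had an unadjusted p under 0.05. In WT mice of 12 months 0 members were called, beside 0% of all genes, and 0 had an unadjusted p under 0.05, beside 3.35% of all genes.

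In untreated mice of 18 months 0 of 75 members were called by genotype with limma, beside 0.134% of all genes, and 14 (18.7%) had an unadjusted p under 0.05, beside 12.4% of all genes. Above 0 were 38 of 75 (50.7%, beside 50.2% of all genes), and the median was 0.00 over the members and over all genes tested. The smallest p was that of Uqcrc1, at 12.04, 12.04, 12.07, 12.12 and 12.09 in Chd8V986*/+ mice, against a range of 12.11 to 12.25 in WT mice. The ranges overlapped slightly for a difference of −0.11 ± 0.03 (SE; adjusted p = 0.171). Ndufa13 followed at −0.14 (adjusted p = 0.245) and Uqcrb, a small complex III subunit, at 0.11 (adjusted p = 0.255). Uqcrq, the member with the largest genotype difference at 12 months, was at 8.65, 8.81 and 8.90 (lowest, median, highest) in Chd8V986*/+ mice, against 8.77, 9.00 and 9.09 in WT mice, and was not called. Uqcr11 was at 9.64, 9.91 and 9.96 in Chd8V986*/+ mice, against 9.81, 10.02 and 10.14 in WT mice. Ndufs8 was at 10.51, 10.57 and 10.67 in Chd8V986*/+ mice, against 10.45, 10.60 and 10.69 in WT mice. The genotypes overlapped for all 3 genes. The differences of Uqcrq, Uqcr11 and Ndufs8 were −0.16, −0.17 and −0.01 (adjusted p = 0.313, 0.324 and 0.969). These were opposite in sign to those at 12 months. Of the other members called higher at 12 months, Ndufa2, Ndufa6, Ndufa7, Ndufa13, Ndufb6, Ndufc1 and Ndufs7 also lay below 0. Uqcr10 was at 0.03, Cox5b at 0.003 and Ndufs1, lower at 12 months, at 0.06. None of these genes was called at 18 months.

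The members also shared a pattern of spread that the choice by name did not use. Within groups, the residual SD had a median of 0.202 over the members and 0.147 over all genes tested, with the lowest in Sdha (0.047) and the highest in Uqcrq (0.346). By complex, the median was 0.258 in complex IV isoforms, 0.231 in complex IV, 0.204 in accessory subunits of complex I, 0.171 in complex III, 0.156 in assembly factors, 0.108 in complex II and 0.104 in core subunits. Members with an mRNA of up to 1000 bases (46 genes) had a median residual SD of 0.22, and those with a longer mRNA (28 genes) 0.108. Spearman's rho between mRNA length and residual SD was −0.631 across the 74 genes, which come from the same libraries and are not independent. The same relation over all genes tested was not examined, so it cannot be called particular to the members.

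**Figure D5:**
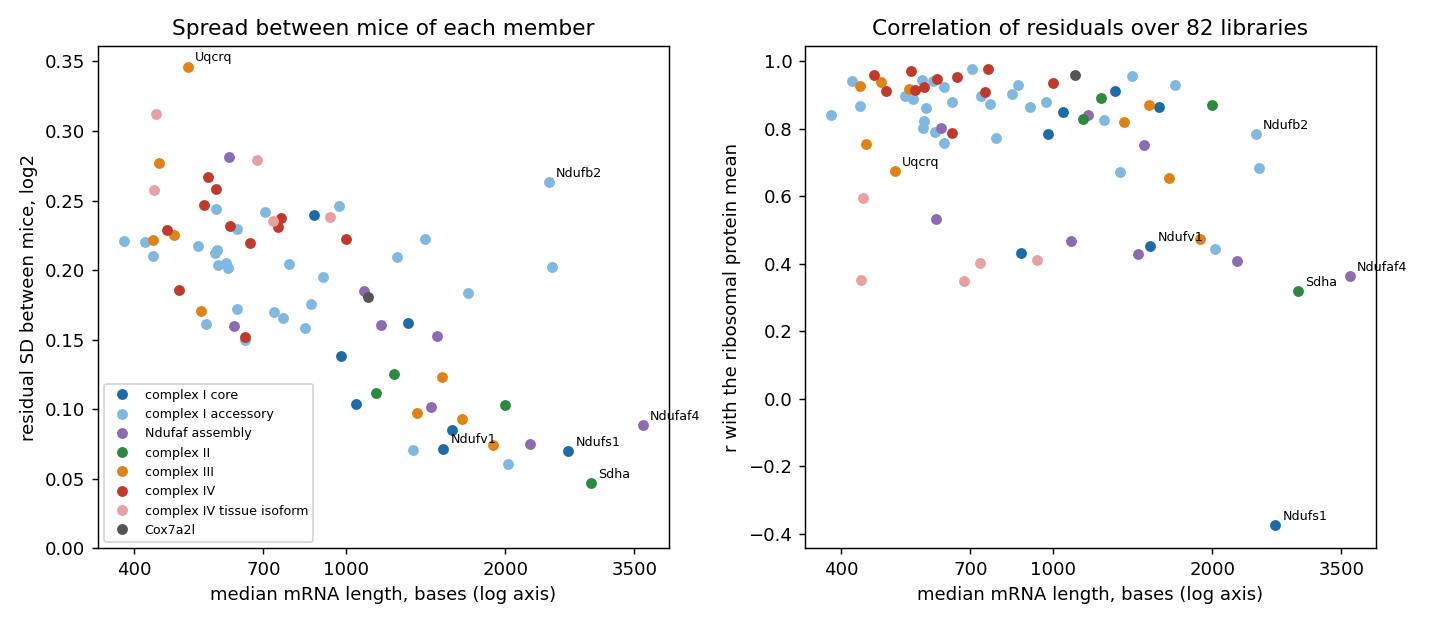
For each of the 74 tested members, the residual SD between mice of a group on the log2 scale (left) and the correlation of its residuals with the ribosomal protein mean over 82 libraries (right), against median mRNA length in bases (log axis), colored by complex. Uqcrq, with a short mRNA, has the highest SD and Sdha, with a long one, the lowest, and Ndufs1 is the single member with a correlation under 0.

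Much of this spread was common to the members and the ribosomal protein genes. Over the 82 libraries, the residuals of a member correlated with the mean residual of the ribosomal protein genes with a median r of 0.854, beside 0.0055 over all genes tested. Of the 74 members 46 had an r over 0.8. The median r was 0.936 in complex IV, 0.873 in accessory subunits, 0.783 in core subunits, 0.5 in assembly factors and 0.401 in isoforms. Ndufs1 was the single member under 0, at −0.375. The points share libraries, whose depth is unknown, and the values are descriptions. The part of a common property of libraries, such as RNA quality, was not tested.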

How the data were processed

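Per the study's Methods, the authors made stranded polyA libraries, trimmed the reads with cutadapt 1.12 and aligned them with STAR 2.5.2b to mm10. The authors then variance-stabilized Salmon estimates with DESeq2. The deposited values are log2 values from which the authors had removed technical terms. For PND 5 and 12 months, a model without groups gives slopes of 0 on the number of the batch, the sex, the dissector and the number of the litter, and for 18 months on the rank of the litter, as read from the values themselves. Counts were not used, and the Methods give depth only as a median over all samples, so that of each library is unknown. Of the sample columns 0 were left unused.

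All genes were fitted in R 4.3.3 with limma 3.58.1 (trend, eBayes), with 8 groups, batch as a factor, sex, dissector and litter number as terms. For 18 months the terms were genotype and the rank of the litter number. Genes tied (tolerance 1e-06) between the mice of any of 38 littermate pairs with equal technical terms lie at the floor and were left out. A call needed an adjusted p (Benjamini-Hochberg, across every gene tested) below 0.05. Values per mouse are group effects plus residuals. For genotype, the replicate block was litter as a factor, and for DM it was litter as a random effect. Pairing comes from the litters in the labels: residuals of littermates had a median r of 0.191 over 74 pairs (0.222 over 55 at PND 5 and 0.0409 over 19 at 12 months), against −0.0333 over 1575 other pairs of the same age. Only the genotype comparison over both exposures at 12 months, with and without the litter block, was tested on simulated data. Results were repeated with no filter, with a minimum mean of 6, with median centring, with quantile normalization, with batch as a number, with no trend, with each age on its own, and with single batches or mice left out. Replicates are separate mice.

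The members and lists were chosen with earlier results of these data known. Values are given for members called by genotype or exposure, for the 2 largest called differences with age in each direction in each complex, for complex II, the Ndufaf genes and the isoform pairs, and for the 3 smallest p-values where no member was called. Some values that meet this rule are not reported here. Gene positions and mRNA lengths are from GENCODE M21 and promoters from RefSeq. Near-identical pseudogene copies could have split reads in the quantification, which was not tested. Some members overlap a gene on the opposite strand, such as Ndufs1 and Ino80dos. Plots used matplotlib 3.10.9.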

Additional observations from a re-analysis of the deposited data

Results flagged for a closer look

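Among 70 groups of values examined for a mouse far from the rest of its group, 2 held one, and chance alone marks about 1 in 20 such groups. Both were Chd8V986*/+ groups at 18 months (n = 5). The mean of the complex IV genes, relative to WT mice, was 0.159 in Chd8V986*/+ mouse 6, with the nearest other mouse at 0.0265. The mean of the complex IV isoforms was 0.000872 in Chd8V986*/+ mouse 2, with the nearest other mouse at −0.0387. The cause of either was not tested.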

How the results depend on the processing

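Members called by genotype over both exposures at 12 months numbered 13, and (with the share of all genes called in the same fit) 8 with batch as a number (12.5%), 30 with each age on its own (28%), 36 with the replicate block (33%), and 8, 8 and 22 without batch 1, 2 and 3 (11.4%, 10.4% and 19.5%). In DM mice the 3 calls became 0, 9 and 18 in those fits (2.46%, 8.69% and 15.5%), and 5, 0, 1 and 0 without batch 1, 2, 3 and 4 (3.68%, 0.911%, 1.27% and 1.75%). In oil mice 0 became 6 with each age on its own (8.31%), 16 with the replicate block (15.9%) and 5 without batch 3 (7.56%). At PND 5 the replicate block gave 1 in oil mice (1.39%). Over both exposures at PND 5 the 1 call became 3 with each age on its own (3.3%), 0 with a mean of at least 6 (2.22%), 3 without batch 1 (3.21%) and 0 without batch 2 (0.349%). The fit with a mean of at least 6 did not include Cox6b2, the gene of that call. The 7 calls of DM in WT mice at PND 5 became 2 with batch as a number (4.56%), 3 under quantile normalization (5.44%), 0 with litter as a random replicate block (0%, consensus correlation 0.339), 4, 1 and 1 without batch 1, 2 and 3 (5.41%, 0.633% and 2.76%), and 4 without the litter B females (6.07%), an alternative chosen after seeing the data. With each age on its own, the 7 became 10 (10.8%), and in Chd8V986*/+ mice 0 became 11 (10.3%). Age calls became 26 in Chd8V986*/+ and 18 in WT oil mice without batch 3 (64.3% and 63.9%). The causes were not tested. The replicate block changed no call of the interactions or of DM mice at PND 5.

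With 1 mouse left out, calls ranged over 46 to 53 (age in Chd8V986*/+), 34 to 38 (age in WT), 0 to 1 (DM in Chd8V986*/+ at PND 5), 3 to 8 (DM in WT at PND 5), 9 to 20 (genotype at 12 months, both exposures), 0 to 6 (DM mice) and 0 to 2 (oil mice). The count stayed at 1 for both exposures at PND 5 and at 0 elsewhere.

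Age differences changed sign under quantile normalization in Cox4i2 (−0.18 in Chd8V986*/+, −0.38 in WT), Cox6a2 (−0.082 in WT), Cox6b1 (0.22, 0.062), Cox6b2 (−0.16 in Chd8V986*/+), Cox7a1 (−0.37, −0.57), Ndufa4l2 (−0.31 in Chd8V986*/+), Ndufaf8 (−0.31, −0.47), Sdhc (0.19, 0.14) and Sdhd (0.16, 0.032). With batch as a number they did so in Cox6b2 (0.15) and Ndufa4l2 (0.016) in WT, Ndufaf5 (0.052) in Chd8V986*/+, Ndufaf6 (0.001049) in WT and Sdhc (0.082, 0.050). Without batch 3 they did so in Cox4i2 (−0.40), Cox6b2 (0.26) and Ndufaf8 (−0.21) in WT and Ndufa4l2 (−0.14) in Chd8V986*/+. Without batch 1 Ndufa4l2 was at 0.001741 in WT, and with median centring Sdhb was at −0.037 in WT.

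The share of higher calls over all genes moved under median centring to 44.8% (DM mice at 12 months, main 57.8%) and 27.7% (oil mice, main 39%), and under quantile normalization to 82.4% (DM in Chd8V986*/+ at PND 5, main 61.2%), 66.7% (DM in WT at PND 5, main 56.1%) and 87.5% (genotype in DM mice at PND 5, main 77.1%).

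Of 712 alternative values of medians over members or their complexes 44 moved by more than a median SE. Over the alternatives, age medians ranged over 0.25 to 0.46 (Chd8V986*/+) and 0.03 to 0.28 (WT) for all members, 0.48 to 0.74 and 0.47 to 0.65 for core subunits, 0.24 to 0.45 and 0.03 to 0.28 for accessory subunits, and −0.17 to 0.01 and −0.17 to −0.02 for assembly factors.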
